A study of Mus musculus with 39 samples.

Results

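Breast tissue of the triple K5Cre genotype was represented by 8 arrays from 8 animals. It was chosen by the genotype label Triple (SB/Tg/k5Cre) and was set against the 4 arrays whose tissue label was normal mammary gland, so that 12 of the 39 Affymetrix mouse arrays of the series entered the comparison. SB and Tg are not spelled out in the labels. Sleeping Beauty stands in the title of the series and is a mobile DNA system used to mutate genes by random insertion, and K5Cre by its name is Cre recombinase driven by the keratin 5 promoter, which is active in basal epithelium. All 12 arrays came from animals that carried SB and Tg. The glands came from 2 animals of the triple K5Cre genotype (T627 and T635, which also gave a breast array each), 1 animal of the quadruple genotype SB/Tg/K5Cre/Bcat (Q440) and 1 of the triple genotype SB/Tg/Bcat (Tbc-139). The breast arrays came from T257, T627, T635, T857, T817, T848, T852 and T856. The labels call this tissue breast without saying whether it was a tumour, and for neither group did they give age, parity or stage of lactation. A second comparison used the 19 breast arrays of the quadruple genotype, from 15 animals.

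Mammary epithelium has a basal layer of contractile, keratin 5 positive cells and a luminal layer that senses hormones and makes milk. It lies in a fat pad with fibroblasts, vessels, mast cells and other immune cells, and body wall muscle lies beside it. Cells that enter division first induce replication genes through E2F factors and then mitotic genes through the MuvB complex, B-MYB and FOXM1. The inhibitors encoded by the Cdkn2 and Cdkn1 genes can halt that programme. Epidermal growth factor ligands are made as membrane precursors, are cut loose by proteases such as ADAM17 and act through the ERK kinases, which induce their own feedback genes.

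The values are log2 expression values, on which a step of 1 is a 2-fold change. Gland values are given in the order Tbc-139, Q440, T627, T635. Differences are fitted triple K5Cre minus gland log2 differences from limma, with the standard error (SE) and a Benjamini-Hochberg adjusted p over all 18194 genes, and a gene was said to rise or fall where that p was under 0.05. Over all genes 1353 rose (7.44%) and 1781 fell (9.79%), of which 385 (2.12%) and 991 (5.45%) moved at least 2-fold. All 8 triple K5Cre arrays lay above all 4 glands for 877 genes (4.82%) and below them for 1029 (5.66%). List counts below are to be read beside these shares. The median difference over all genes was 0.02. Without the gland of T627 the shares were 3.49% higher and 6.24% lower, and with only the 2 glands of the triple K5Cre genotype they were 3.14% and 7.24%.

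Array medians ran from 5.13 to 5.18. The triple K5Cre arrays were less alike than the glands, with correlations over all probe sets of 0.933 to 0.986 among the breast arrays and 0.976 to 0.99 among the glands. The highest between a breast array and a gland was 0.968. Breast T852 carried skeletal muscle genes at the level of the glands. Breast T627 had little Krt5, Krt14 or Trp63, and both arrays of T627 were low in Xist, at 7.0 in breast and 5.64 in gland, where the others held 11.43 to 12.25. The Y-linked genes Eif2s3y, Kdm5d and Uty were between 2.28 and 3.17 on all 12 arrays. Breast T257 held milk genes at gland level, and gland Tbc-139 held epidermal genes above the other glands and little Wap.

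Genes of cell division were higher in triple K5Cre breast. Of 26 measured mitosis genes 25 rose, against 7.44% of all genes. For 24 of them every breast array lay above every gland, against 4.82% of all genes. All 23 DNA replication genes, 11 of 12 genes of homologous recombination and checkpoints and 11 of 14 chromatin regulators of proliferating cells rose too. The median differences of these lists were 2.00, 1.11, 1.22 and 0.91. The mean of the mitosis list was 7.49, 8.56 and 9.04 (lowest, median, highest) on the triple K5Cre arrays, against 6.33, 6.45, 5.77 and 6.87 on the glands. All 8 breast arrays were above all 4 glands, with T856 and T627 the lowest of the breast arrays and T848 the highest. The replication list mean was 7.91, 8.60 and 9.19 (lowest, median, highest) on the triple K5Cre arrays, against 7.10, 7.22, 6.98 and 7.63 on the glands, again with no overlap. The mitosis count was 25 or 26 whichever array was left out, whereas the recombination count was 8 without gland Tbc-139 or gland T627. With the triple K5Cre glands alone the counts were 25 for mitosis, 11 for replication, 6 for recombination and 5 for the chromatin regulators.

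**Figure D1:**
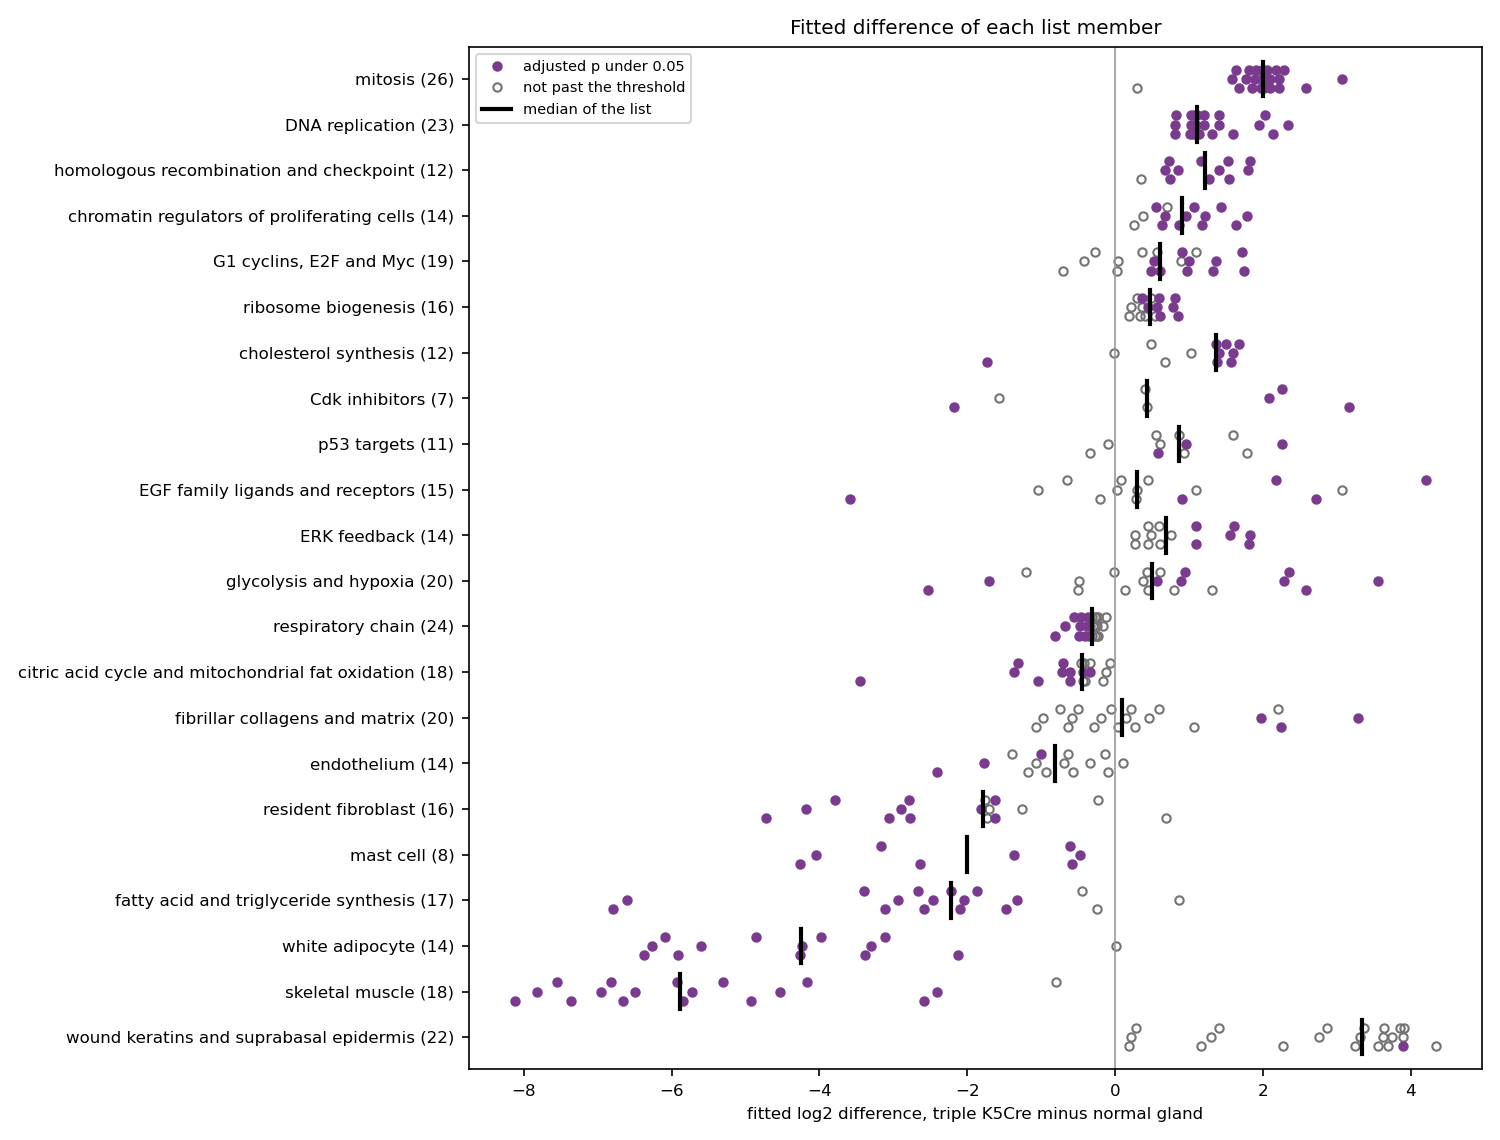
Each point is the fitted log2 difference, triple K5Cre minus normal gland, of a member of the gene list named at the left, with the number of measured members in brackets. Filled points had an adjusted p under 0.05, open points did not, and black bars mark list medians, which run from 3.34 for wound keratins and suprabasal epidermis, where 1 of 22 members is filled, to -5.89 for skeletal muscle.

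Cenpe, a motor protein of the kinetochore, measured 6.55, 7.79 and 8.61 (lowest, median, highest) on the triple K5Cre arrays, against 5.41, 5.22, 3.62 and 4.87 on the glands. The lowest breast array, T856, lay above the highest gland, Tbc-139, and the fitted difference was 3.07 (SE 0.45, adjusted p = 9.41e-06), the largest of the list. Bub1, a kinase of the spindle checkpoint, was between 7.23 and 9.05 (median 8.52) on the triple K5Cre arrays and at 5.58, 5.60, 5.13 and 6.52 on the glands, with no overlap and a difference of 2.58 (SE 0.44, adjusted p = 5.56e-05). Ttk, the checkpoint kinase Mps1, rose by 2.29 (SE 0.43, adjusted p = 0.000193). Mki67, the proliferation marker, was between 9.25 and 10.97 (median 10.25) on the triple K5Cre arrays and at 8.03, 8.63, 7.24 and 8.72 on the glands. The lowest breast array, T627, stood above the highest gland, that of T635, and the difference was 2.01 (SE 0.34, adjusted p = 5.84e-05). Cep55, needed for the final separation of daughter cells, Cks2, a subunit of cyclin-dependent kinases, and Dlgap5, a spindle protein, were outside the list and among the rises with the smallest p: their differences were 2.40 (adjusted p = 1.66e-05), 1.87 (adjusted p = 1.23e-05) and 1.84 (adjusted p = 1.51e-05). Foxm1, which encodes a transcription factor of mitotic genes and was the member of the mitosis list that did not pass, was between 6.06 and 6.84 (median 6.55) on the triple K5Cre arrays and at 5.99, 6.36, 6.13 and 6.19 on the glands. Its groups overlapped and its difference was 0.30 (adjusted p = 0.0687), with adjusted p = 0.0149 without breast T627.

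Among the replication genes, Rrm2, a subunit of ribonucleotide reductase, was between 7.82 and 10.39 (median 9.17) on the triple K5Cre arrays and at 7.07, 7.18, 5.66 and 7.19 on the glands, with every breast array above every gland. Its difference was 2.34 (SE 0.42, adjusted p = 0.000112). Tk1, thymidine kinase, rose by 2.13 (SE 0.35, adjusted p = 4.06e-05) and Uhrf1, which guides maintenance methylation to new DNA, by 2.03 (SE 0.39, adjusted p = 0.000253). Brca1, of homologous recombination, was between 6.48 and 8.60 (median 7.55) on the triple K5Cre arrays and at 5.41, 5.36, 5.24 and 6.24 on the glands. Breast T627 and T856 were the lowest of their group and stood just above the gland of T635, and the difference was 1.82 (SE 0.37, adjusted p = 0.000603). Exo1, an exonuclease of resection, rose by 1.54 (adjusted p = 0.00516). Hells, a chromatin remodeller, and Hmgb2, a chromatin protein of dividing cells, rose by 1.79 and 1.63. Of 19 genes of G1 cyclins, E2F and Myc 10 rose, led by E2f8 (1.74) and E2f2 (1.72), and 6 did without the gland of T627 and 2 with the triple K5Cre glands alone. Of 16 ribosome biogenesis genes 8 rose, among them the nucleolar protein gene Nop56 (0.81), but 5 did without gland Q440, 1 without the gland of T627 and 2 with the triple K5Cre glands alone. The median difference of that list was 0.47.

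Since mitosis and replication genes moved together, their promoters were searched on both strands for 3 short motifs. The window ran from 250 bases before to 50 bases after the start in the RefSeq table of mouse build GRCm38.p6. The CHR element, TTTGAA, which is bound by the MuvB complex, was in 15 of 21 mitosis promoters (71.4%), 3 of 19 replication promoters (15.8%) and 1930 of 14453 promoters of all measured genes with an entry (13.4%). The CCAAT box, CCAAT, bound by NF-Y, was in 16 of 21 (76.2%), 13 of 19 (68.4%) and 38.2% of all. An E2F motif, TTTNNCGC, was in 1 of 21 mitosis promoters (4.76%), that of Cdk1, in 9 of 19 replication promoters (47.4%) and in 7.28% of all. The first pair of promoters below, Ttk and Plk1, hold a CHR and at least 1 CCAAT box, and the second pair, Uhrf1 and Mcm5, hold an E2F match and several CCAAT boxes. Each is written on the gene's strand with matches in capitals, reverse-strand matches included, and overlapping matches run together in Uhrf1 and Mcm5. A match is a run of letters and was not tested as a binding site.
Ttk: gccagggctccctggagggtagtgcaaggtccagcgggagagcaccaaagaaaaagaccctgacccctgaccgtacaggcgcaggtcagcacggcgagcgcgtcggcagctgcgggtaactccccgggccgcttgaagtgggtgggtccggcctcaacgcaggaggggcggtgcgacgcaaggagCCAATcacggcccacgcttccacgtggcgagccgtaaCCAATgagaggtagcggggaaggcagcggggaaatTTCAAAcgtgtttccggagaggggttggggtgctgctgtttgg
Plk1: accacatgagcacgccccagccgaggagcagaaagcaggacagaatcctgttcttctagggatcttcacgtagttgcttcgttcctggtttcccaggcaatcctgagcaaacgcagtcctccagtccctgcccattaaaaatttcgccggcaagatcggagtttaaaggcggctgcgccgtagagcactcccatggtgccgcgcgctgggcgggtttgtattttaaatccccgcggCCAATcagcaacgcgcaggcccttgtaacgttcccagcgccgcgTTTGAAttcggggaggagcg
Uhrf1: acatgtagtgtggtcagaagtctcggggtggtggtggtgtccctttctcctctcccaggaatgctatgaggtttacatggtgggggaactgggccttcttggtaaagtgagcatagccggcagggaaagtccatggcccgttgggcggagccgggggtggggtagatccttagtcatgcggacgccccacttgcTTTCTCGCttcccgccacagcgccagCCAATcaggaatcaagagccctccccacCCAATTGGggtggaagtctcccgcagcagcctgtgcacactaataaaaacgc
Mcm5: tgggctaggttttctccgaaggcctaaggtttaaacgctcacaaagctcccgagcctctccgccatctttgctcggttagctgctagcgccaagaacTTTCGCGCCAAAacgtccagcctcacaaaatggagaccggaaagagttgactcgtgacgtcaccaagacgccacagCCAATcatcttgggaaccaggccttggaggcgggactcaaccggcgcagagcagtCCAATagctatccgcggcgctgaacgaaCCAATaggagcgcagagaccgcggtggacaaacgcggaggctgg
These windows are chr9:83834439-83834738, chr7:122159185-122159484, chr17:56303087-56303386 and chr8:75109259-75109558 in that order, all on the plus strand. Plk1, a mitotic kinase, and Mcm5, a subunit of the replicative helicase, were chosen after their values were seen. Plk1 was between 7.28 and 9.0 (median 8.42) on the triple K5Cre arrays and at 5.89, 6.20, 5.51 and 6.35 on the glands, and Mcm5 was between 6.91 and 8.60 (median 7.79) on the triple K5Cre arrays and at 5.88, 5.85, 5.99 and 6.73 on the glands. Their differences were 2.22 (SE 0.36, adjusted p = 4.07e-05) and 1.59 (SE 0.38, adjusted p = 0.00286).

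**Figure D2:**
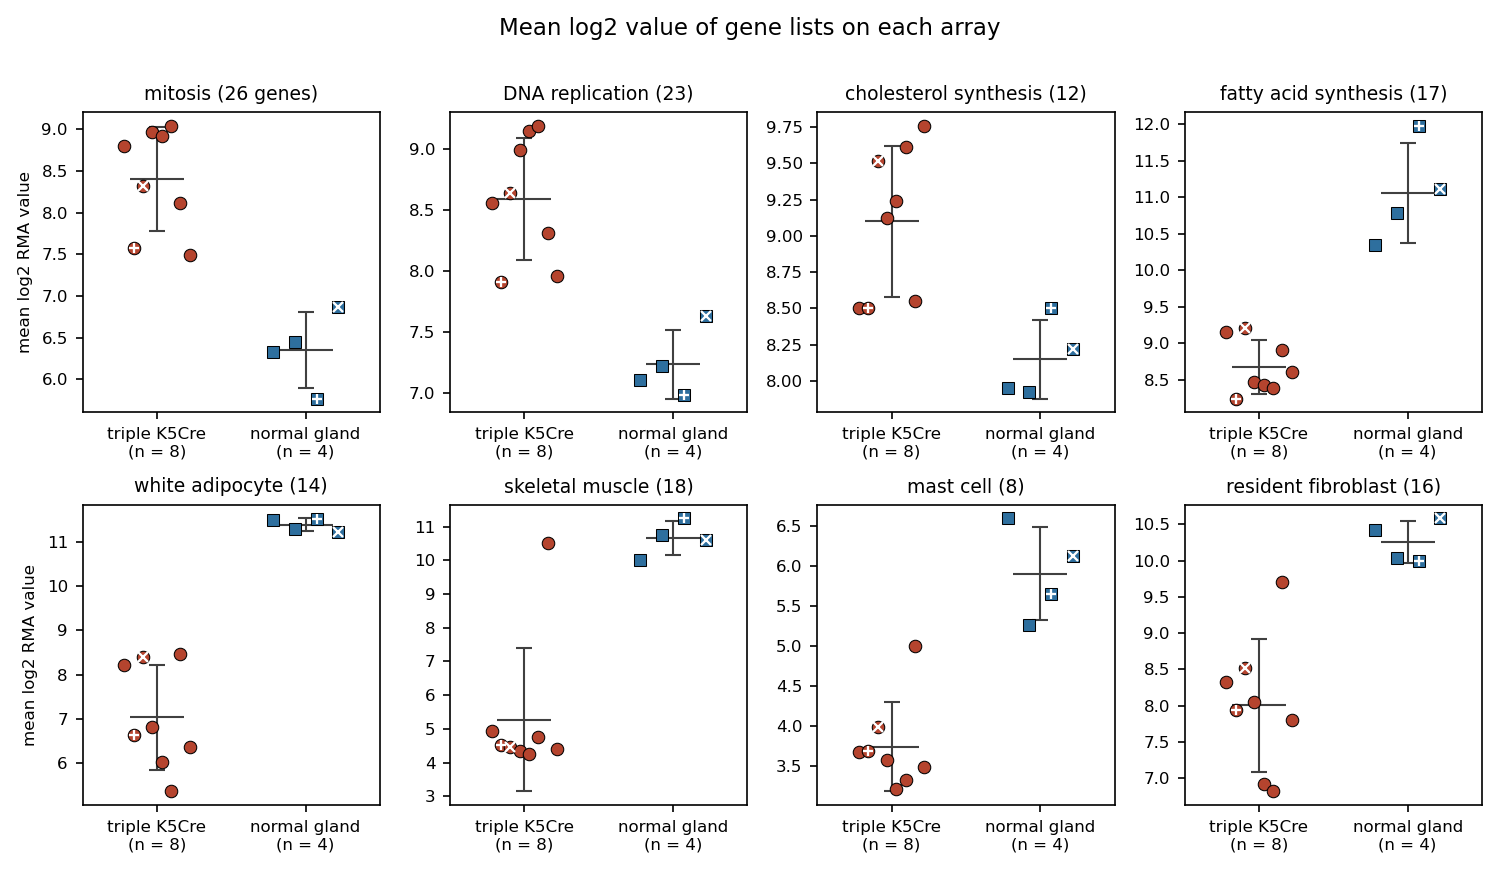
Points are arrays, and each panel gives the mean log2 value of a gene list, triple K5Cre breast (8) left and normal gland (4) right, with the group mean ± SD as lines. White plus signs mark both arrays of T627 and crosses both arrays of T635; the breast point at the level of the glands in the muscle panel is T852, at 10.51.

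Inhibitors of cyclin-dependent kinases moved in both directions. Of 7 genes 3 rose and 1 fell. Cdkn2a, which encodes p16INK4a and p19ARF, was 7.75, 9.08 and 10.67 (lowest, median, highest) on the triple K5Cre arrays, against 7.86, 4.75, 7.02 and 4.52 on the glands. Breast T257 and gland Tbc-139 lay at almost the same value, while gland T627 was above the other 2 glands, and the difference was 3.16 (SE 0.71, adjusted p = 0.00147). Its 1 probe set gives no separate value for the 2 proteins. Cdkn1a, the p21 gene, was between 9.83 and 12.40 (median 11.72) on the triple K5Cre arrays and at 10.34, 8.77, 8.93 and 8.75 on the glands. Breast T257 and T848 were below gland Tbc-139 and above the other glands, and the difference was 2.26 (SE 0.51, adjusted p = 0.00171). Cdkn2b, the neighbour of Cdkn2a that encodes p15, rose by 2.08 (adjusted p = 0.011), and had adjusted p of 0.0579 to 0.0605 without the gland of T627 or that of T635. Cdkn2c, which encodes p18, moved the other way and was between 8.03 and 9.52 (median 9.18) on the triple K5Cre arrays and at 11.10, 11.42, 11.05 and 10.91 on the glands. Every breast array was below every gland, and the difference was -2.18 (SE 0.32, adjusted p = 9.08e-06). Of 11 p53 target genes 3 rose (Cdkn1a, Mdm2 and Sesn2), with a list median of 0.87; the count was 1 without the gland of T627, 5 without gland Tbc-139 or breast T257, 6 without breast T848 and 7 without breast T852. Mdm2, whose product degrades p53, had a difference of 0.58 (adjusted p = 0.0113), with adjusted p of 0.0671 to 0.0796 without either array of T627 and a difference of 0.38 without the breast array. Cdkn2a was the 1 of 23 tumour suppressors of insertion screens that rose.

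Of 15 genes of EGF ligands and receptors 4 rose and 1 fell (median 0.30). Ereg, which encodes epiregulin, was 2.98, 7.30 and 9.45 (lowest, median, highest) on the triple K5Cre arrays, against 3.88, 2.75, 2.71 and 2.74 on the glands. Breast T257 lay among the glands and the other 7 breast arrays lay above all of them. The difference was 4.21 (SE 1.25, adjusted p = 0.0159), the largest rise of all named genes, and its adjusted p was 0.0603 to 0.0622 without the gland of T627 or that of T635. Hbegf, heparin-binding EGF-like growth factor, was between 6.13 and 10.15 (median 8.35) on the triple K5Cre arrays and at 6.30, 5.54, 5.11 and 5.98 on the glands, again with T257 inside the gland range. Its difference was 2.72 (adjusted p = 0.0274), with adjusted p of 0.0532 to 0.125 without gland Q440 or any array of T627 or T635. Tgfa, transforming growth factor alpha, was between 6.21 and 11.16 (median 8.87) on the triple K5Cre arrays and at 7.55, 5.70, 6.81 and 6.51 on the glands. Its groups overlapped through T257, and its difference was 2.18 (adjusted p = 0.0461), lost (adjusted p 0.0585 to 0.137) without any one of glands Q440, T627 and T635 or breasts T627, T635, T857, T817 and T856. Erbb2, a receptor of the family and the fourth gene of the list that rose, was named after its values were seen (difference 0.91, adjusted p = 0.00804). The 4 rises were 2 without gland Q440 or breast T627 or T635, 1 without the gland of T627 or that of T635, and 0 with the triple K5Cre glands alone. Nrg4, a neuregulin secreted by fat, fell by 3.59 on the log2 scale (adjusted p = 2.77e-06).

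Adam17 encodes the protease that sheds several of these ligands. It was 9.34, 9.55 and 9.81 (lowest, median, highest) on the triple K5Cre arrays, against 8.72, 8.66, 8.39 and 8.90 on the glands. The groups were separate and narrow, with the lowest breast array, T817, above the highest gland, T635, and the difference was 0.91 (SE 0.14, adjusted p = 1.90e-05), among the 6 smallest p of all rises. Of 14 ERK feedback genes 6 rose and all 14 differences were positive (median 0.69); 2 rose without the gland of T627 and 1 with the triple K5Cre glands alone. Dusp6, a phosphatase of ERK, was between 10.04 and 12.66 (median 10.92) on the triple K5Cre arrays and at 9.69, 9.42, 9.82 and 9.56 on the glands. All breast arrays were above all glands, T627 by the most, and the difference was 1.61 (SE 0.33, adjusted p = 0.000619). The ETS factor genes Etv4 and Etv5 had differences of 1.82 (adjusted p = 0.0113) and 1.81 (adjusted p = 0.0159). Without the gland of T635 the adjusted p of Etv4 was 0.0575, and without either array of T627 that of Etv5 was 0.0672 to 0.0734.

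**Figure D3:**
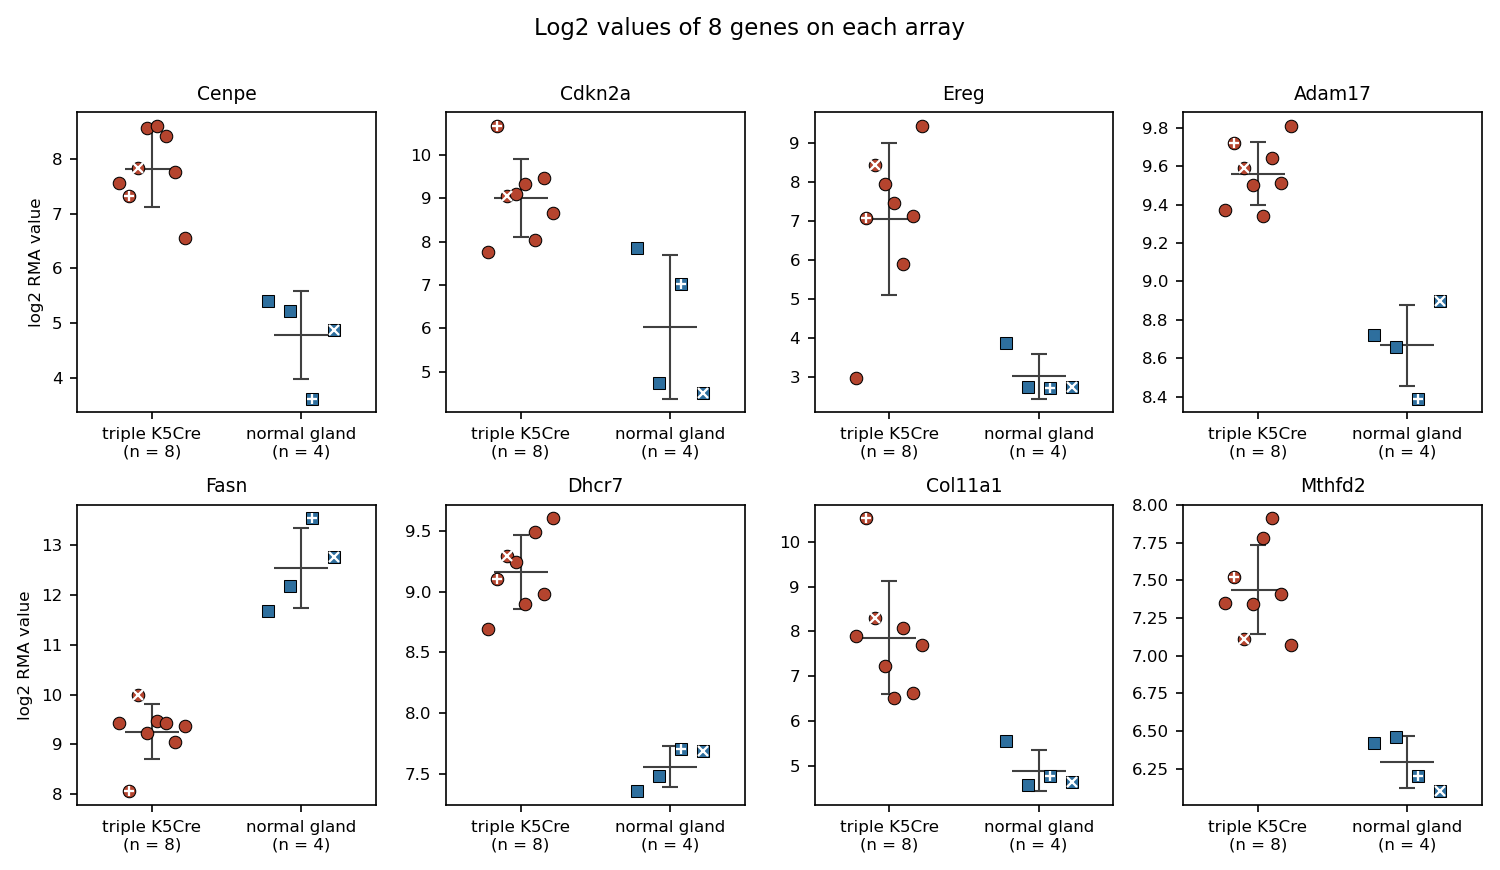
Log2 values of 8 genes on each array, triple K5Cre breast (8, circles) left and normal gland (4, squares) right, with group mean ± SD. Plus signs mark T627 and crosses T635. The groups overlap through 1 breast array for Cdkn2a and for Ereg (T257 in both), and do not overlap in the other 6 panels; each panel has its own axis range.

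Fat genes were lower on every triple K5Cre array. Of 14 measured white adipocyte genes 13 fell, against 9.79% of all genes, with a list median of -4.25. All 13 lay lower on every breast array than on every gland, against 5.66% of all genes. The list mean was 5.37, 6.74 and 8.46 (lowest, median, highest) on the triple K5Cre arrays, against 11.49, 11.28, 11.52 and 11.23 on the glands. The highest breast arrays were T852, T635 and T257, and the lowest was T848. Adipoq, the adipokine adiponectin, was between 2.78 and 10.24 (median 7.53) on the triple K5Cre arrays and at 13.83, 13.92, 13.93 and 13.67 on the glands. The breast arrays spread over more than 7 log2 units while the glands were alike, and the difference was -6.27 (SE 1.62, adjusted p = 0.00569). Cidec, a lipid droplet protein, and Retn, the adipokine resistin, had differences of -6.37 (adjusted p = 3.18e-05) and -6.09 (adjusted p = 1.90e-05). The member that did not fall was Lipf, a gastric lipase, at 2.66 to 3.12 on breast arrays and 2.82 to 2.99 on glands. In tissue RNA such as this, fewer fat cells and less RNA per fat cell cannot be told apart, and the same holds for every cell type named here.

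Enzymes of lipid synthesis split by product. Of 17 genes of fatty acid and triglyceride synthesis 14 fell and none rose (median -2.22), and 9 fell without the gland of T627. Fasn, fatty acid synthase, was 8.06, 9.41 and 9.99 (lowest, median, highest) on the triple K5Cre arrays, against 11.67, 12.17, 13.53 and 12.76 on the glands. The groups were separate, with breast T627 the lowest and gland T627 the highest of all, and the difference was -3.40 (SE 0.52, adjusted p = 1.73e-05). Thrsp, a regulator of lipogenesis, and Pck1, which supplies glycerol for triglycerides, had differences of -6.79 (adjusted p = 0.00175) and -6.60 (adjusted p = 5.44e-05). Of 12 genes of cholesterol synthesis 7 rose and 1 fell (median 1.37). Dhcr7, which makes the last step to cholesterol, was 8.69, 9.17 and 9.60 (lowest, median, highest) on the triple K5Cre arrays, against 7.36, 7.49, 7.71 and 7.69 on the glands. No breast array reached down to a gland, and the difference was 1.59 (SE 0.38, adjusted p = 0.00303). Srebf2, the transcription factor of the pathway, was 8.27 to 9.50 on the triple K5Cre arrays against 7.45 to 7.71 on the glands, and was named after its values were seen (difference 1.38, adjusted p = 0.000134). Insig1, an inhibitor of that factor's activation, was the member that fell, at 7.47 to 8.19 on the triple K5Cre arrays against 8.35 to 10.77 on the glands (difference -1.74, SE 0.29, adjusted p = 5.85e-05). The 7 rises were 4 without gland Tbc-139 or breast T848, 3 without gland Q440, 2 without either array of T635 and 2 with the triple K5Cre glands alone. The cholesterol list mean of breasts T257, T627 and T852, 8.50 to 8.55, lay beside that of the highest gland, T627, at 8.50. Adipocyte and muscle markers were higher in the glands beside all of these differences, and their part in the result was not tested beyond the fit with covariates given below.

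Genes of respiration and of mitochondrial fat oxidation fell in part. All 24 respiratory chain genes had a negative difference and 10 fell (median -0.31), 5 without the gland of T627. Sdhb and Sdha, subunits of succinate dehydrogenase, had the largest falls, at -0.82 (adjusted p = 0.000168) and -0.68 (adjusted p = 0.0016), and Sdhb was between 10.24 and 10.78 (median 10.43) on the triple K5Cre arrays and at 11.06, 11.43, 11.43 and 11.18 on the glands, with no overlap. Of 18 genes of the citric acid cycle and mitochondrial fat oxidation 10 fell (median -0.45). Pcx, pyruvate carboxylase, had a difference of -3.45 (SE 0.50, adjusted p = 6.65e-06), Cpt2, which imports fatty acids, had a difference of -1.37 (adjusted p = 2.07e-05) and Acadm, an acyl-CoA dehydrogenase, of -1.32 (adjusted p = 0.000315). Of 20 glycolysis and hypoxia genes 7 rose and 2 fell. Car12, a membrane carbonic anhydrase, was 6.01, 9.44 and 9.85 (lowest, median, highest) on the triple K5Cre arrays, against 7.94, 5.01, 4.48 and 5.13 on the glands. Only breast T852 lay inside the gland range, and the difference was 3.55 (SE 0.61, adjusted p = 6.98e-05). The other 2 probe sets of Car12 had differences of means of 0.17 and 0.40, so the rise rests on 1 probe set. Ankrd37, a hypoxia-induced gene, rose by 2.58 (adjusted p = 0.00157), and Pfkfb3, which activates glycolysis, fell, with a difference of -2.53 (adjusted p = 6.38e-05). The 7 rises were 4 without any one of the glands or breast T627, and 2 with the triple K5Cre glands alone. The 2 falls were 1 without gland Tbc-139 or any array of T635 or the gland of T627.

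Mthfd2, a mitochondrial enzyme of one-carbon folate metabolism, was 7.07, 7.38 and 7.91 (lowest, median, highest) on the triple K5Cre arrays, against 6.42, 6.46, 6.20 and 6.10 on the glands. The groups did not overlap, the difference was 1.14 (SE 0.16, adjusted p = 6.61e-06), and a second probe set gave a difference of means of 1.34. Shmt2, the preceding enzyme of that pathway, was between 6.77 and 8.02 (median 7.28) on the triple K5Cre arrays and at 6.45, 6.42, 6.33 and 6.44 on the glands, also without overlap (difference 0.96, SE 0.19, adjusted p = 0.000478). In the list of amino acid and stress response genes 4 of 20 rose and 3 fell, 2 rose without either array of T627 and 1 fell without the gland of T627. Slc1a5, a glutamine transporter, fell furthest and was 6.40 to 7.66 on the triple K5Cre arrays against 9.62 to 10.54 on the glands (difference -3.35, SE 0.44, adjusted p = 1.21e-06). Of 12 NRF2 and glutathione genes 4 fell, among them the secreted peroxidase Gpx3 (difference -3.33, adjusted p = 0.0011) and catalase, Cat (difference -1.42, adjusted p = 0.000661), and 2 fell without gland Q440 or that of T627.

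Skeletal muscle genes gave the largest falls. Of 18 measured genes 17 fell (median -5.89), 15 without the gland of T627. The list mean was 4.27, 4.48 and 10.51 (lowest, median, highest) on the triple K5Cre arrays, against 10.02, 10.74, 11.24 and 10.60 on the glands. Breast T852 held the value of 10.51, inside the gland range, and the next breast array, T257, held 4.93. Myh4, a fast myosin heavy chain, was 2.75, 2.99 and 11.38 (lowest, median, highest) on the triple K5Cre arrays, against 10.27, 11.49, 12.51 and 11.83 on the glands, and Tnnc2, fast troponin C, was between 3.77 and 13.20 (median 4.11) on the triple K5Cre arrays and at 12.13, 13.31, 13.74 and 13.13 on the glands. T852 was the single breast array at gland level for both. The differences were -7.82 (SE 1.55, adjusted p = 0.000394) and -8.12 (SE 1.67, adjusted p = 0.000597). Without breast T852 and gland Tbc-139 together, 16 muscle genes fell.

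Stromal markers were lower as well. Of 16 resident fibroblast genes 10 fell (median -1.79), 7 without gland Tbc-139, T627 or T635 and 5 with the triple K5Cre glands alone. Clec3b, tetranectin, was 4.80, 5.28 and 6.89 (lowest, median, highest) on the triple K5Cre arrays, against 9.62, 9.30, 9.64 and 10.24 on the glands. T852 was the highest breast array and was still below every gland, and the difference was -4.18 (SE 0.51, adjusted p = 3.92e-07). Dpt, dermatopontin, and Efemp1, fibulin 3, fell by 4.73 and 3.79 on the log2 scale (adjusted p = 0.00128 and 0.013). All 8 mast cell genes fell (median -2.01), and 7 did without gland Tbc-139 or that of T627. The protease Cpa3 was between 3.80 and 7.81 (median 4.52) on the triple K5Cre arrays and at 9.84, 8.44, 8.86 and 9.59 on the glands, and Mcpt4, another granule protease, was between 3.26 and 5.63 (median 3.99) on the triple K5Cre arrays and at 8.22, 6.38, 6.75 and 7.58 on the glands. The highest breast array was T852 for both and no array overlapped. Their differences were -4.26 (SE 0.67, adjusted p = 2.05e-05) and -3.17 (SE 0.38, adjusted p = 2.54e-07). Of 14 endothelial genes 3 fell (median -0.82). The count was 2 without gland T627, gland T635 or breast T627, 5 without breast T257 and 8 without breast T852. Tek, the angiopoietin receptor, was 4.25 to 6.46 on the triple K5Cre arrays against 6.87 to 7.90 on the glands (difference -2.41, SE 0.47, adjusted p = 0.000311) and Ptprb, a phosphatase of vessels, had a difference of -1.77 (adjusted p = 0.000775).

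Esm1, which encodes endocan and is made by endothelial tip cells, went against the endothelial list. It was 7.11, 7.73 and 9.40 (lowest, median, highest) on the triple K5Cre arrays, against 5.24, 3.65, 4.15 and 4.48 on the glands. All breast arrays lay above all glands, T852 highest, and the difference was 3.39 (SE 0.57, adjusted p = 5.00e-05). Of 14 angiogenic and tip cell genes 2 rose and 4 fell, and 2 fell without any one gland or any one of breasts T635, T817, T848 and T856. The falls included Vegfb (difference -1.27, adjusted p = 0.000645) and Angptl4, a lipase inhibitor induced by fasting (difference -2.10, adjusted p = 0.0133). The rises were Esm1 and Pgf, placental growth factor (difference 2.13, adjusted p = 0.00845), of which Pgf lost its call without either array of T627 (adjusted p 0.0515 to 0.0699), with a difference of 1.39 without the breast array. Col11a1, a minor fibrillar collagen, was 6.52, 7.80 and 10.52 (lowest, median, highest) on the triple K5Cre arrays, against 5.56, 4.57, 4.78 and 4.64 on the glands. T627 was the highest breast array, none overlapped the glands, the difference was 3.28 (SE 0.72, adjusted p = 0.00116), and a second probe set gave a difference of means of 3.00. It was 1 of 3 genes of 20 collagen and matrix genes that rose (median 0.10), and 1 rose without gland Q440, T627 or T635 or breast T627. Timp4 and Timp2, inhibitors of metalloproteinases, fell by 4.19 and 1.58 on the log2 scale (adjusted p = 1.33e-06 and 0.00113). In the metalloproteinase list 1 of 20 rose and 3 fell, and 0 rose without any one of glands Tbc-139, T627 and T635 or breasts T627, T635 and T852.

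Few immune genes other than those of mast cells passed the test. None of 21 chemokines and cytokines, 10 neutrophil genes or 15 interferon-stimulated genes passed in limma, with medians of 1.01, 0.71 and 0.31. At an unadjusted p under 0.05 there were 7 chemokine and cytokine genes and 0 of the neutrophil and of the interferon genes. In the chemokine and cytokine list 2 rose without breast T635 or T817, 1 rose without the gland of T635 and 1 fell without breast T852. With array weights, where 17.5% of all genes rose and 17.5% fell, 10 of its genes rose and 1 fell. There 2 neutrophil and 0 interferon genes rose. Cxcl1, a neutrophil attractant, was between 7.96 and 12.87 (median 8.67) on the triple K5Cre arrays and at 7.91, 8.30, 7.26 and 8.10 on the glands, with T627 far above the rest and T635 inside the gland range, and its difference was 1.60 (adjusted p = 0.0621). It passed without the gland of T635, breast T635 or breast T817 (adjusted p 0.0273 to 0.0493). The interferon list mean was 9.85 in T257, 9.83 in T848 and 5.94 in T817, the ends of the breast range, against 7.20 to 8.12 in the glands. Of 10 B and plasma cell genes 2 fell, 1 did without gland Tbc-139 or Q440, and 0 did without the gland of T627 or that of T635. Of 15 macrophage genes 1 fell, and 0 did without gland Tbc-139, T627 or T635.

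Epithelial genes spread widely among the 8 breast arrays. Krt5, the keratin whose promoter drives K5Cre, was 5.74, 11.17 and 12.35 (lowest, median, highest) on the triple K5Cre arrays, against 10.83, 9.12, 9.73 and 9.51 on the glands. T627 lay far below all other arrays, and the difference of 0.55 (adjusted p = 0.673) did not pass. Krt5 passed in limma without that array (adjusted p = 0.0298), but not without both arrays of T627 (adjusted p = 0.0681). With the triple K5Cre glands alone its difference was 0.40 (adjusted p = 0.856). Krt14, its partner, was between 7.37 and 13.40 (median 11.52) on the triple K5Cre arrays and at 11.24, 8.63, 9.53 and 9.81 on the glands and Krt8, a luminal keratin, was between 10.84 and 14.25 (median 12.35) on the triple K5Cre arrays and at 12.43, 12.43, 13.53 and 13.04 on the glands. Breasts T635, T857, T817 and T856 were highest in Krt14 and lowest in Krt8, and neither difference passed, at 1.19 (adjusted p = 0.434) and -0.63 (adjusted p = 0.514). Of 16 basal and myoepithelial genes 1 rose and 2 fell, with 2 rises without breast T627, 4 falls without breast T257 and 1 fall without any one of glands Q440, T627 and T635 or breasts T627, T635, T857, T817 and T856. Itgb4, an integrin of hemidesmosomes, rose by 1.28 (adjusted p = 0.00294), with every breast array above every gland. Oxtr, the oxytocin receptor of myoepithelium, was between 5.10 and 9.67 (median 6.93) on the triple K5Cre arrays and at 9.22, 10.25, 10.71 and 10.59 on the glands. T257 was inside the gland range and the other 7 breast arrays were below it (difference -3.35, SE 0.79, adjusted p = 0.00252). None of 9 simple epithelial genes passed in limma, and 0 had an unadjusted p under 0.05 (median -0.15). Cdh1, E-cadherin, lay at 11.54 to 12.29 on the triple K5Cre arrays against 11.31 to 11.74 on the glands.

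Of 10 hormone-sensing luminal genes 2 fell, 1 without the gland of T635 and 0 without the gland of T627. Esr1, the oestrogen receptor, was 4.74, 7.46 and 9.95 (lowest, median, highest) on the triple K5Cre arrays, against 10.15, 10.23, 11.07 and 10.42 on the glands. Breasts T257, T848 and T852 lay just below the glands and T857, T817 and T856 near 5, and the difference was -3.01 (SE 0.84, adjusted p = 0.0102), with adjusted p = 0.0619 without the gland of T627. The groups were not separate for milk protein genes, although all 11 had a negative difference (median -2.42). Their list mean was 12.65 in breast T257 and 5.11 to 8.25 in the other breast arrays, against 7.99, 12.99, 10.30 and 11.95 in the glands, and 1 of 11 fell. The count was 5 without breast T257, 3 without gland Tbc-139, 2 without breast T627 and 0 without gland Q440 or T635 or breast T635, T857, T817 or T848. Wap, a whey protein, measured 13.73 in breast T257 and 4.60 to 5.98 in the others, against 4.84, 14.55, 11.06 and 13.53 in the glands.

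Wound keratins and suprabasal epidermal genes had the highest median of all lists described, 3.34, yet 1 of 22 rose. The list mean was 11.09 in T635 and T856, 10.40 in T857, 10.37 in T817, 7.87 in T852, 6.21 in T848, 5.74 in T257 and 4.82 in T627, against 7.98, 5.03, 4.87 and 4.96 in the glands. The first 4 breast arrays were above every gland, and the others were within or near the gland range. The 8 genes with the largest SD over the breast arrays were Calm4, Defb6, Flg, Klk13, Krtdap, Lce1c, Rptn and Stfa3, several of them genes of cornifying epidermis. Flg, the filaggrin gene of the cornified layer, was at 11.17, 11.13, 10.19 and 10.99 in T635, T857, T817 and T856, 5.42 in T852 and 2.31 to 2.43 in the other 3, against 6.46 in gland Tbc-139 and 2.24 to 2.67 in the other glands. Krt79, a keratin of the hair follicle infundibulum and the 1 gene of the list that rose, had a difference of 3.89 (adjusted p = 0.0404). Like Dapl1, Dynap and Psapl1, which were also among the largest rises (3.65, 4.09 and 3.41), it lost its call without any one of glands Q440, T627 and T635 or breasts T635, T857, T817 and T856, with adjusted p of 0.0513 to 0.219. The count for the list was 8 without breast T627, 3 without gland Tbc-139 and 2 without breast T257, T848 or T852, and with array weights 19 of the 22 genes rose. In the desmosome and junction list 2 of 17 rose and 1 fell (median 1.16). Its rises were 6 without breast T627, 5 without gland Tbc-139, 4 without breast T257, T848 or T852, 1 without breast T857 or T817 and 0 without glands Q440, T627 or T635 or breasts T635 or T856, and its fall was lost without glands Tbc-139, Q440 or T635 or breast T635.

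**Figure D4:**
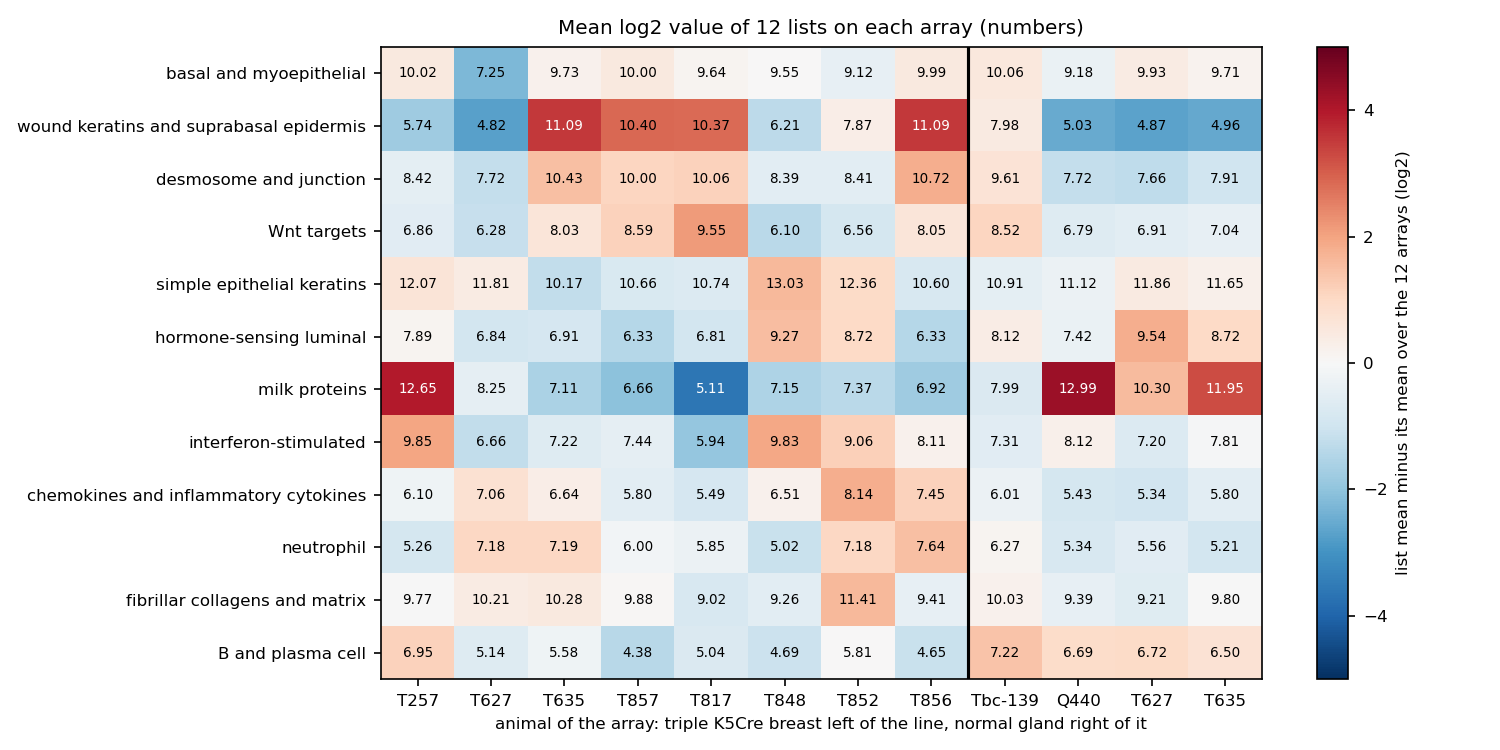
Numbers are the mean log2 value of each list (rows) on each array (columns), triple K5Cre breast left of the line and normal gland right of it, and colours give that value minus its mean over the 12 arrays. Suprabasal genes run from 4.82 in breast T627 to 11.09 in T635 and T856, and milk genes are high in breast T257 (12.65) and gland Q440 (12.99).

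Ctnnb1, the beta-catenin gene, is the target implied by Bcat, an element the triple K5Cre genotype lacks. It was 12.65, 12.92 and 13.39 (lowest, median, highest) on the triple K5Cre arrays, against 12.94, 12.44, 12.59 and 12.70 on the glands. The groups overlapped and the difference was 0.26 (SE 0.13, adjusted p = 0.191). Glands Tbc-139 and Q440 came from genotypes with Bcat, so the glands are mixed in that element. In Ctnnb1 Tbc-139 was the highest gland and Q440 the lowest. The Wnt target list mean had the same order at its ends, 8.52 in Tbc-139 and 6.79 in Q440, with 6.91 in T627 and 7.04 in T635. Over all genes 7.44% rose and 9.79% fell, and the counts of the Wnt and FGF lists below lay near those shares. Of 17 Wnt target genes 1 rose (Cd44), or 5.88%, with a list median of 0.21. The count was 0 without gland Q440, T627 or T635, 2 without gland Tbc-139 or breast T848 and 3 without breast T852. Of 29 Wnt ligands and modulators 1 rose (3.45%) and 4 fell (13.8%). The fall with the smallest p was that of the receptor gene Fzd4, at 5.20 to 8.83 on the triple K5Cre arrays against 9.21 to 9.60 on the glands (difference -3.20, SE 0.52, adjusted p = 3.81e-05). The rise was 0 without any one of glands Tbc-139, T627 and T635 or breasts T635, T857 and T817, and the falls were 2 without the gland of T635. Of 15 FGF ligands and receptors 2 fell (13.3%). Fgf10, a mesenchymal ligand of mammary bud growth, was between 3.90 and 4.50 (median 4.06) on the triple K5Cre arrays and at 6.61, 7.26, 6.29 and 5.90 on the glands. The groups lay well apart, and the difference was -2.35 (SE 0.31, adjusted p = 1.90e-06). It was also 1 of the 4 of 23 oncogenes of insertion screens that fell, a count of 2 without gland Q440, T627 or T635 or breast T848. None of the 23 rose in limma, and 2 did without breast T852. Of 15 Hox genes 3 fell, among them Hoxa5, with a difference of -1.72 (adjusted p = 1.70e-06), and Hoxc8, with one of -4.09 (adjusted p = 0.00055). Of 14 circadian genes 4 fell, among them Cry2 and Nr1d1, repressors of the clock, with differences of -1.29 (adjusted p = 0.000197) and -0.91 (adjusted p = 0.000984), and 2 did without the gland of T627 or that of T635. The remaining 14 lists held 156 members, of which 2 rose and 16 fell, beside 7.44% and 9.79% of all genes.

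Single genes stood out besides the lists. Kcne3, a potassium channel subunit, was between 5.51 and 9.24 (median 7.75) on the triple K5Cre arrays and at 4.52, 3.35, 4.79 and 4.37 on the glands, and Tnnt2, the troponin T of heart, was between 5.93 and 8.37 (median 7.01) on the triple K5Cre arrays and at 3.95, 3.52, 4.21 and 4.07 on the glands. Neither overlapped, and they rose by 3.35 (SE 0.67, adjusted p = 0.000414) and 3.02 (SE 0.63, adjusted p = 0.000632). Large falls outside the skeletal muscle and white adipocyte lists included Amy1, an amylase whose copies share sequence, and Cyp2e1, a cytochrome P450. Their differences were -6.67 (adjusted p = 1.48e-05) and -6.69 (adjusted p = 4.41e-06). In the limma fit with adipocyte and muscle covariates given below they were -0.65 (adjusted p = 0.945) and -1.21 (adjusted p = 0.893). That fit lost 85 of the 91 named calls compared. These falls, like the other changes lost there, are not shown to be separate from fat and muscle content. The 6 falls with the smallest p were Slc6a13, a transporter of GABA and taurine, Ranbp3l, a nuclear export adaptor, Ptgfr, the prostaglandin F receptor, Paqr9, a progestin receptor family member, Negr1, an adhesion molecule, and Opn3, an opsin. Slc6a13 was between 3.60 and 4.07 (median 3.92) on the triple K5Cre arrays and at 6.21, 6.85, 5.90 and 6.63 on the glands, and Ranbp3l was between 2.85 and 3.16 (median 3.03) on the triple K5Cre arrays and at 4.76, 4.90, 4.86 and 4.69 on the glands. Breast arrays were nearly uniform and lay wholly below the glands. The differences were -2.53 (SE 0.19, adjusted p = 4.34e-11) and -1.79 (SE 0.14, adjusted p = 4.34e-11). The breast values of Ranbp3l were at the level of the Y-linked genes given above, and those of Slc6a13 were not far above it. No detection calls were used, so such values may lie near the array background, where arrays spread little. How far this shaped the small SE and p was not tested. Ptgfr, Paqr9, Negr1 and Opn3 had differences of -2.41, -2.74, -4.01 and -2.80, with adjusted p of 7.20e-10, 1.46e-09, 4.63e-09 and 8.29e-09 in that order.

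T627 and T635 gave breast and gland from the same animal. Of the 3134 genes that passed, 3102 (99.0%) moved in the same direction within T627, 3105 (99.1%) within T635 and 3073 in both, although these arrays also entered the fit that chose the genes. A fit of these 4 arrays by animal called 0 genes in limma, with 2694 at an unadjusted p under 0.05 and 1 residual degree of freedom. Within T627 the breast minus gland mean was 1.81 for the mitosis list, -4.87 for adipocytes, -6.73 for muscle and -0.05 for suprabasal genes. Within T635 the same means were 1.45, -2.84, -6.15 and 6.14.

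Because fat and muscle markers differed so widely, a fit was made with the adipocyte and muscle list means of each array as covariates. It called 29 genes, 0 higher and 29 lower. The median of the mitosis list there was 0.83, of replication 0.40, of cholesterol synthesis -0.26, of fatty acid synthesis -0.43, of resident fibroblasts 0.54 and of endothelium 0.53. The 6 falls with the smallest p named above kept their calls, with differences of -1.79 for Slc6a13, -1.49 for Ranbp3l, -2.03 for Ptgfr, -1.86 for Paqr9, -2.34 for Negr1 and -1.47 for Opn3. The highest adipocyte mean of a breast array, 8.46, was below the lowest of a gland, 11.23, so these differences are extrapolated beyond the arrays at hand, and the group and its fat content cannot be told apart.

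**Figure D5:**
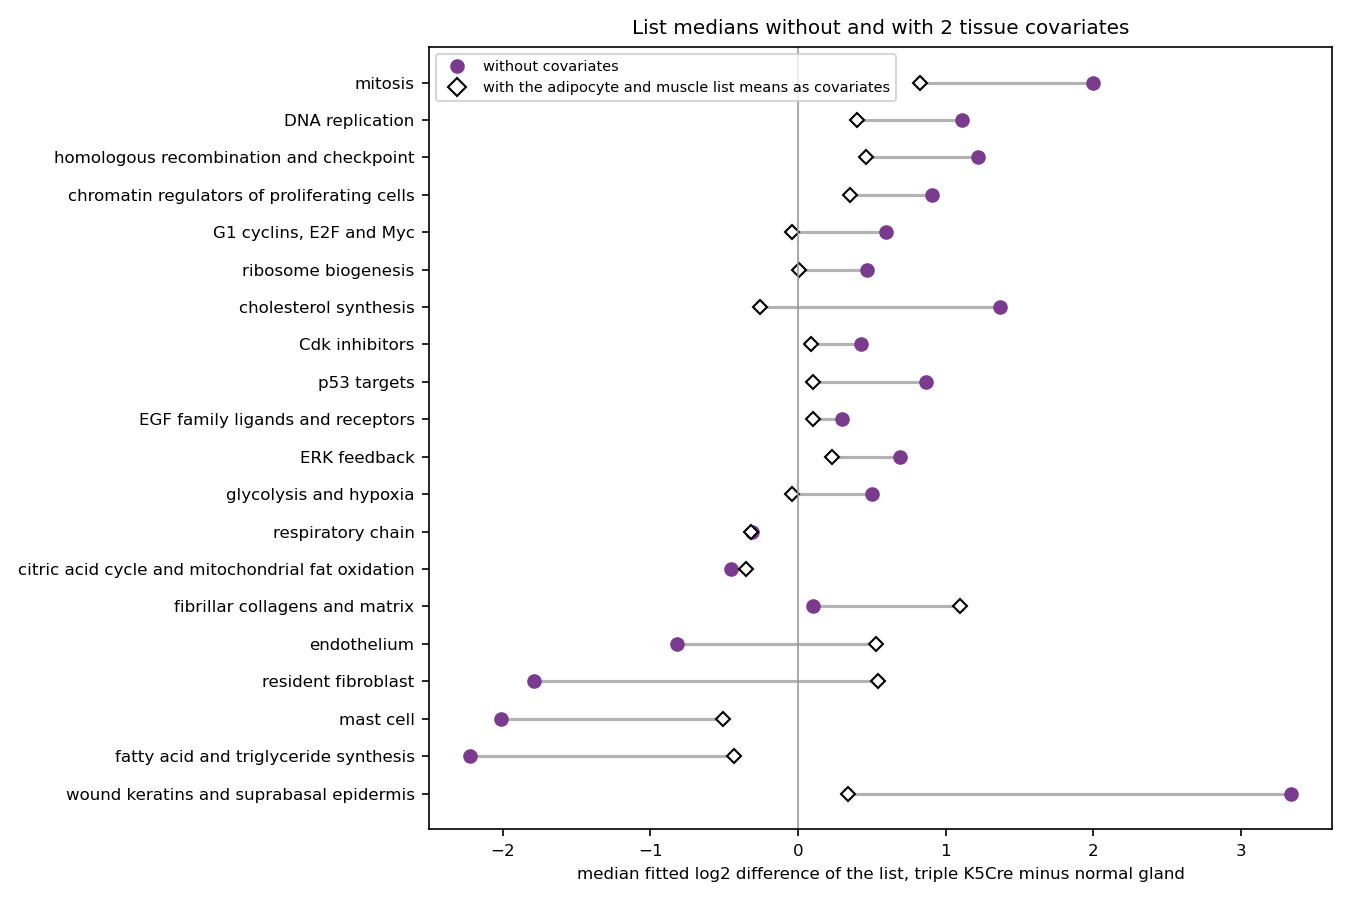
Median fitted log2 difference of 20 gene lists, triple K5Cre minus normal gland, without covariates (filled circles) and with the adipocyte and muscle list means of each array as covariates (open diamonds). The mitosis median moves to 0.83 with covariates and is 2.00 without. The fibroblast and endothelial medians change sign, to 0.54 and 0.53. So do those of cholesterol synthesis (to -0.26), G1 cyclins, E2F and Myc (to -0.04) and glycolysis and hypoxia (to -0.04).

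Against the quadruple breast arrays, which carry Bcat in addition, 0 of 18194 genes passed in limma for triple K5Cre. At an unadjusted p under 0.05 there were 811 (4.46%), the smallest adjusted p was 0.539, and 1 gene passed without breast T627. The median triple K5Cre minus quadruple difference was 0.25 for mitosis, -0.16 for suprabasal genes, -0.10 for Wnt targets and -1.57 for milk genes. Side by side, the quadruple arrays had 1037 (5.7%) genes higher and 1757 (9.66%) lower than gland and the triple Bcat arrays 317 (1.74%) and 979 (5.38%), in comparisons that share the same 4 glands. The mitosis median was 2.00 in triple K5Cre, 1.72 in quadruple and 1.45 in triple Bcat, and the neutrophil median was 0.71, 0.81 and 3.10. Adam17 had differences from gland of 0.91, 0.69 and 1.02 and Ereg of 4.21, 2.99 and 5.26 in the same order.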

How the data were processed

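RNA from 39 mouse samples was measured on Affymetrix arrays (100 ng of RNA each, per the labels). Besides breast and normal gland, the labels name Bcat +/- tumours on the ventral side and Bcat +/- masses. These entered the fit as groups of their own. The deposited log2 values were made by the authors with RMA, per the submitters' processing notes; its version, background step and summary settings are not given in the sources used here. They ran from 1.65 to 14.61, so no scanner values, detection calls or scan batches were used. Precision is limited by how many arrays there are.

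Of 45101 probe sets 34958 had 1 gene, 932 several and 9211 none. The brightest probe set stood for each of 18194 genes. Probe sets marked as cross-hybridising (_x_) were used only where a gene had no other, which held for 100 genes. Genes with near-identical copies remain uncertain. Genes were tested with limma 3.58.1 (statmod 1.5.0, R 4.3.3) on all 39 arrays, with 1 mean for each of 6 groups, the animal as a random block (duplicateCorrelation, consensus 0.329, or -0.092 over the 12 compared arrays alone) and a mean-variance trend. Pairing is by animal: titles give T627 and T635 on both a breast and a gland array. Because of the block a fitted difference need not equal the difference of group means. P-values measure the spread between these arrays. Plots and summaries used Python 3.11.15, numpy 2.4.6, pandas 2.3.3 and matplotlib 3.10.9.

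The members and gene lists were chosen with earlier results of these data known: 57 lists with 876 distinct genes, of which 820 were measured. Genes named were the 12 largest changes and 6 smallest p in each direction, up to 3 called genes per list and direction (the 2 smallest p where none passed), 10 genes of the design and tissue, and the 8 with the largest SD over the breast arrays; clones and predicted genes were skipped, and not all that qualified are printed. Foxm1, Lipf, Wap, Trp63, the Y-linked genes, Plk1, Mcm5, Erbb2, Srebf2 and Cdh1 were named after their values were seen. Alternatives were no block, the 12 arrays alone, a filter on low genes, cyclic loess, array weights, mean probe sets, no trend, fewer glands, the 2 animals with both tissues, covariates and leaving out each array.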

Additional observations from a re-analysis of the deposited data

Results flagged for a closer look

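Arrays were compared within the 8 triple K5Cre breasts and within the 4 glands for a value far from all others, by the gap to the nearest array over the group's whole range. Of 306 values 43 stood apart. The cut-off is set for about 1 in 20 by chance among independent values. These values hold lists beside their own members and genes named for their values, so no excess can be read from the count. Breast T852 stood highest in the skeletal muscle list (10.51) and its genes Myh4 (11.38) and Tnnc2 (13.20), in the mast cell list (5.0) with Cpa3 (7.81) and Mcpt4 (5.63), and in Nrg4 (6.29), Fzd4 (8.83) and Hoxa5 (5.92), and lowest in Car12 (6.01) and Cdh1 (11.54).

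Breast T627 stood lowest in the basal and myoepithelial list (7.25), Krt5 (5.74), the FGF list (5.16), the Wnt ligand list (5.62), the oncogenes of insertion screens (7.12) and Xist (7.0). It stood highest in Col11a1 (10.52), Cxcl1 (12.87) and Pgf (12.21). The gland of T627 was lowest in Xist (5.64) and in Rrm2 (5.66). Breast T257 was highest in milk proteins (12.65), Wap (13.73) and Oxtr (9.67) and lowest in the EGF family list (6.36). Among the other breast arrays, T635 was lowest in Kcne3 (5.51), T817 lowest in Acadm (9.76) and T848 highest in Insig1 (8.19).

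Gland Tbc-139 stood highest in the suprabasal list (7.98), the desmosome list (9.61), the Wnt target list (8.52), Flg (6.46), Dapl1 (8.12), Dynap (5.49), Psapl1 (8.79), Ereg (3.88) and Cdkn1a (10.34). The gland of T635 was highest in Brca1 (6.24) and Mcm5 (6.73) and lowest in Ankrd37 (4.12) and Acadm (11.31), and gland Q440 was lowest in Efemp1 (10.70).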

How the results depend on the processing

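The direction of all 96 named genes that passed was kept under every alternative but the covariates, where 13 of 91 turned and 6 kept their calls. The total of 3134 called genes (7.44% higher, 9.79% lower) was 6366 (17.5% each way) with array weights, 1888 (3.14% higher, 7.24% lower) with the triple K5Cre glands alone, 1814 (3.74% and 6.23%) without both arrays of T627, 29 (0% and 0.159%) with the covariates and 0 (0% each way) with the replicate block on T627 and T635 alone. Leaving out 1 array gave 1770 to 3460 calls, 3.49% to 8.49% higher and 6.24% to 10.5% lower, the lowest of each without the gland of T627. Other alternatives gave 2495 to 3239 calls. With the dimmest genes left out 12.1% of those tested were higher and 11.4% lower, and with cyclic loess 6.38% and 10.6%. Against quadruple breast 0 to 1 genes passed when 1 array was left out. With the covariates the difference was 1.00 for Angptl4, 1.04 for Dpt, 1.12 for Efemp1, -0.22 for Etv4, 0.00 for Foxm1, 0.09 for Fzd4, 0.20 for Gpx3, 0.56 for Hoxc8, -1.16 for Krt14, -0.68 for Krt5, 0.34 for Krt8, 0.36 for Pck1, 0.40 for Ptprb, -0.04 for Sesn2, 0.03 for Tek, -0.90 for Tgfa and 0.08 for Thrsp. There 15 of 41 list medians changed sign, to -0.04 for G1 cyclins, E2F and Myc, -0.04 for glycolysis and hypoxia, -0.26 for cholesterol synthesis, -0.69 for Wnt targets, -0.11 for oncogenes and 0.05 for tumour suppressors of insertion screens, -0.12 for basal, 0.65 for simple epithelial, 1.18 for milk, 0.54 for resident fibroblast, 0.53 for endothelial, 0.55 for angiogenic, 0.63 for macrophage, 1.29 for B and plasma cell and 0.18 for Hox genes. In the pairing by animal, with the replicate block on T627 and T635, Krt5 was at -0.72. The cause was not tested. The alternatives with both arrays of T627, or with breast T852 and gland Tbc-139, left out were chosen after seeing the data. The 4 glands, 3 genotypes and unstated ages and stages limit every comparison, and no value says how much of the tissue was epithelium.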
